A study of Mus musculus with 8 samples.

Results

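At 48 h, peritoneal macrophages treated with the high dose of LECT2 were compared with cells treated with the low dose, on the 4 arrays (of 8 in the series) whose labels give 48 h. These arrays were chosen by their labels alone. LECT2 (leukocyte cell-derived chemotaxin 2) is a secreted chemotactic protein that liver cells release into blood. Macrophages were taken from the peritoneum of mice, plated in low-glucose medium with 20% serum and given 0.5 µg/ml (low dose) or 5 µg/ml (high dose) LECT2 for 48 h. Every array carried LECT2-treated cells in Cy3 and, in Cy5, cells kept for 48 h with 0 µg/ml. There were 2 arrays per dose, 1 from each of 2 separate experiments, each on its own mice, numbered as replicates 1 and 2. The strain, sex and age of the mice, the number of mice per experiment and the source of the LECT2 are not given in the sources used here. The other 4 arrays carry the same doses at 3.5 h and entered the estimate of the spread.

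Resident peritoneal macrophages clear apoptotic cells and debris, make complement component C1q and carry scavenger and lectin receptors. When pattern-recognition or cytokine receptors are engaged, such cells switch on NF-kB targets (cytokines, chemokines, prostaglandin synthesis) and interferon-stimulated genes, and in many settings they shift to glycolysis and turn down genes of their resting state. CD209a, a C-type lectin, has been described as a LECT2 receptor on macrophages. A comparison of doses asks which of these programmes differ between a smaller and a larger amount of the same protein, and it cancels a dye effect that is equal on all arrays.

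The deposited table holds log2 control over LECT2, whereas the titles name the samples the other way round, and every sign is turned here. A value is therefore log2 LECT2 over control on 1 array, and the dose difference is the high dose value minus the low dose value, averaged over the 2 replicates. The table and the scanner files disagree about which array is which. All 4 of the 48 h columns equal the ratio of 1 scanner file within 0.01 for 100% of 39030 single-spot probes, but each of these files is recorded under another sample. By the record, the files of low dose replicate 1 and high dose replicate 1 match best the table's 3.5 h high dose columns. In replicate 2 the file recorded for the low dose equals the column of high dose replicate 1, and the file recorded for the high dose equals the column of low dose replicate 2. The columns' labels are followed throughout, and each direction below rests on them: with the files as recorded, 65 of 69 named genes took the opposite sign and no gene passed the threshold.

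On the 48 h arrays 62.6% to 70.9% of the gene spots were well above background in the LECT2 channel, and 69.9% to 79.1% in the control channel. Of 15 macrophage marker genes 14 were measured and none was dim in the LECT2 channel of all 4 arrays, with a summed signal of 330000 to 519000 intensity units. T and NK cell markers summed to 21900 to 26200 with 1 of 20 dim (Klrb1c), B cell markers to 15100 to 17400 with 0 of 14 dim, and neutrophil markers to 35300 to 60800 with 2 of 12 dim (Ngp and Ltf). Such markers were thus not at 0 in the cultures, and which cells they came from was not tested. In such bulk samples fewer cells of a type and less RNA per cell cannot be told apart.

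Several groups of transcripts differed between the doses in both experiments. Interleukin 17 and 22 genes, acute phase genes, NF-kB target cytokines and hypoxia-response genes stood higher at the high dose. The C1q chains, some scavenger and lectin receptors, Igf1, several CC chemokines and 4 genes of MHC class II presentation stood lower. Among interferon-stimulated genes Gbp3, Gbp5 and Ifit1 stood higher at the high dose, while for Ifit2 and Gbp2b the difference depended on the processing. Tnf, the prototype inflammatory cytokine, and Arg1, the arginase gene of alternatively activated macrophages, had overlapping doses.

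None of these differences passed the test on the ratios. With limma over 26123 genes, 0 passed an adjusted p of 0.05 in either direction (0.0%), and the smallest adjusted p was 0.0926, for Il17a and C1ql2. At an unadjusted p under 0.05, 1015 genes (3.89%) stood higher at the high dose and 1722 (6.59%) lower. A difference was estimated with a median standard error of log2 0.40. In count, 573 genes (2.19%) stood at least 2-fold higher in both replicates, 808 (3.09%) at least 2-fold lower, and 185 (0.708%) were beyond 2-fold in opposite directions. Among the 19762 genes well above background in both channels of all 48 h arrays, these counts were 413 (2.09%), 465 (2.35%) and 2 (0.0101%). The shares over all genes, 2.19% higher and 3.09% lower, are the backgrounds for every list count below. Across genes the differences of the 2 replicates correlated at r = 0.487, and at 0.667 among these bright genes; genes are not independent replicates, and this is a description.

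**Figure D1:**
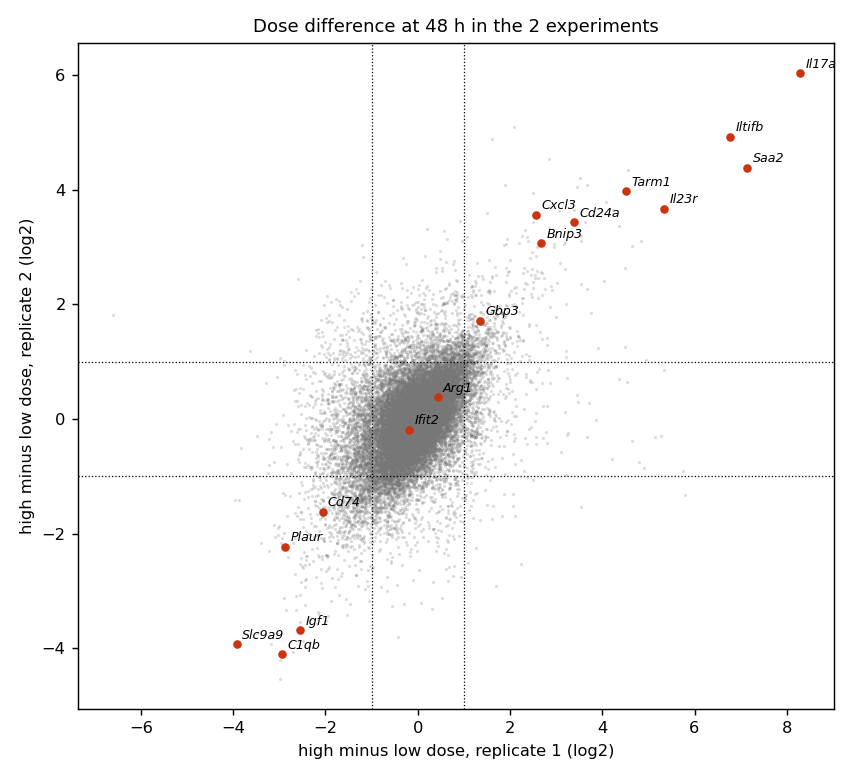
Dose difference of each of 26123 genes at 48 h in replicate 1 (horizontal, log2) and replicate 2 (vertical, log2), as grey points, with 16 named genes in red and dotted lines at 2-fold. Genes beyond 2-fold the same way lie in the upper right (573) and lower left (808) corners, and 185 lie in the other corners.

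The dye channels were also read singly from the scanner files whose ratios equal the table's columns. The control channels held untreated cells on both arrays of a replicate, so their difference gives a background without LECT2, though it was not the same for all genes (values beside the interferon genes and Cxcl3). Differences of the LECT2 channel between the high and low dose arrays had an SD of 0.44 and 0.53 (replicates 1 and 2) on the log2 scale, against 0.22 and 0.19 for the control channel. In the LECT2 channel alone, with no ratio to the control, 176 of 25696 genes (0.685%) passed the threshold as higher at the high dose and 153 (0.595%) as lower, and 4240 (16.5%) had an unadjusted p under 0.05. In the control channel alone 0 passed (0.0%; smallest adjusted p 1.00) and 88 (0.342%) had an unadjusted p under 0.05. This fit had no replicate block, so a spread between experiments that both arrays of a replicate share stayed in its error. Its count is therefore no clean background for the calls in the LECT2 channel. All 329 genes called in the LECT2 channel had the same sign in the ratio, and 273 of them were beyond 2-fold in both replicates there. The ratio holds the same LECT2 signal, and among these genes the median size of the control channel difference was 0.088 against 1.41. The shared sign was thus largely fixed in advance and is no separate support. This single-channel fit was a listed alternative and not the main test. Below, "passed" names it for a dose difference unless another test is stated, such as that against control, the replicate block or the interaction.

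**Figure D2:**
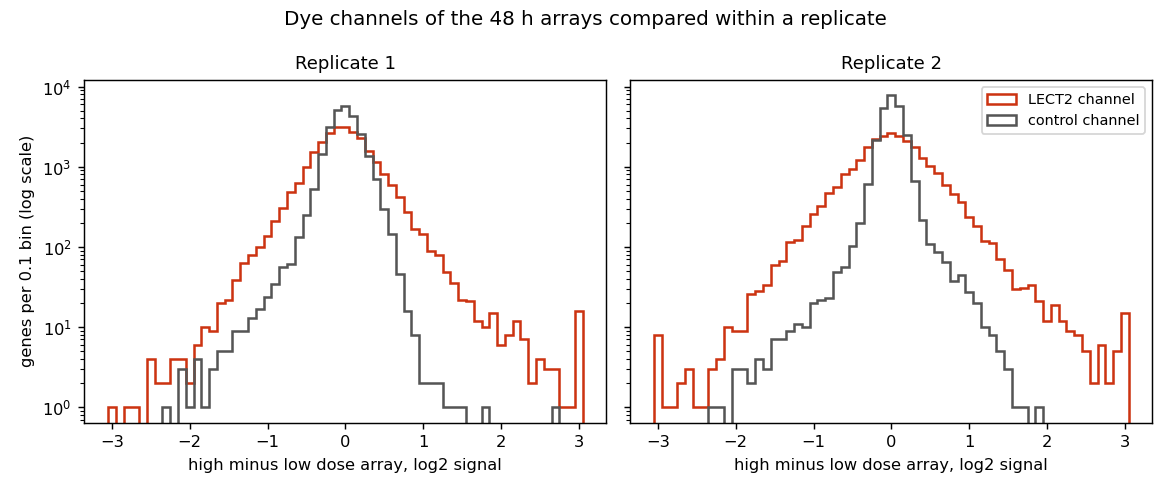
Difference between the high and low dose array of each replicate at 48 h, as log2 signal of the LECT2 channel (red) and of the control channel (grey); the vertical axis is the number of genes per 0.1 bin on a log scale, and values beyond 3 are placed in the end bins. The LECT2 channel is wider than the control channel in both replicates, with SDs of 0.44 and 0.53 against 0.22 and 0.19.

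Interleukin 17A and interleukin 22 are cytokines that act on epithelial and stromal cells and on neutrophil recruitment, and they are best known from T cells and innate lymphoid cells. Il17a was at 1.05 and 1.08 at the low dose and 9.33 and 7.12 at the high dose. The transcript was not well above background at the low dose on either array, so only a bound is known: the high dose stood at least 27.3-fold higher (adjusted p = 0.0926 in the ratio). Its control signal was well above background on only 1 of the 4 arrays, so its ratios rest on a dim control. In the LECT2 channel alone Il17a passed (adjusted p = 0.0181). Iltifb, a near-identical copy of Il22 whose probe cannot be taken as free of Il22 transcript, was at 1.72 and 2.00 at the low dose and 8.49 and 6.93 at the high dose, at least 16.9-fold higher at the high dose, and passed in the LECT2 channel (adjusted p = 0.00752); it too was dim at the low dose. The control signal of Iltifb was not well above background on any of the 4 arrays. The groups did not overlap for either gene. Named genes were ranked by their dose differences, so such a lack of overlap, here and below, follows in part from the choice.

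The related transcripts had smaller dose differences. Il17f was at 0.63 and 0.26 at the low dose and 3.83 and 3.35 at the high dose, a dose difference of 3.15 ± 0.75 (adjusted p = 0.294). Il22 itself was at 0.097 and 0.47 at the low dose and 1.67 and 2.20 at the high dose, and Ifng, the macrophage-activating interferon, at 3.82 and 2.86 at the low dose and 6.83 and 5.24 at the high dose; both were named after their values were seen. The control signal of Ifng was not well above background on any of the 4 arrays, so its ratios rest on a dim control, and the low dose did not pass against control (adjusted p = 0.156). None of Il17f, Il22 and Ifng passed in the LECT2 channel, where the differences were 2.06 ± 0.74 (adjusted p = 0.211), 1.92 ± 0.38 (adjusted p = 0.0568) and 1.81 ± 0.98 (adjusted p = 0.416). Il23r, the receptor subunit of interleukin 23, was at -0.26 and 0.18 at the low dose and 5.09 and 3.85 at the high dose. It was not well above background at the low dose or in any control channel, its bound was at least 2.17-fold higher at the high dose, and it passed in the LECT2 channel (adjusted p = 0.0419). Il12a, the p35 subunit of interleukin 12, was at 1.63 and 0.76 at the low dose and 5.99 and 4.13 at the high dose, at least 3.11-fold higher at the high dose. Il12a was dim at the low dose and in the control channel of all 4 arrays, and did not pass in the LECT2 channel (adjusted p = 0.0794). Of 20 measured T and NK cell markers 0 stood beyond 2-fold in both replicates in either direction (backgrounds 2.19% and 3.09%), their median dose difference was -0.12, and their summed LECT2 signal was 26200 and 22900 on the low dose arrays and 25700 and 21900 on the high dose arrays.

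**Figure D3:**
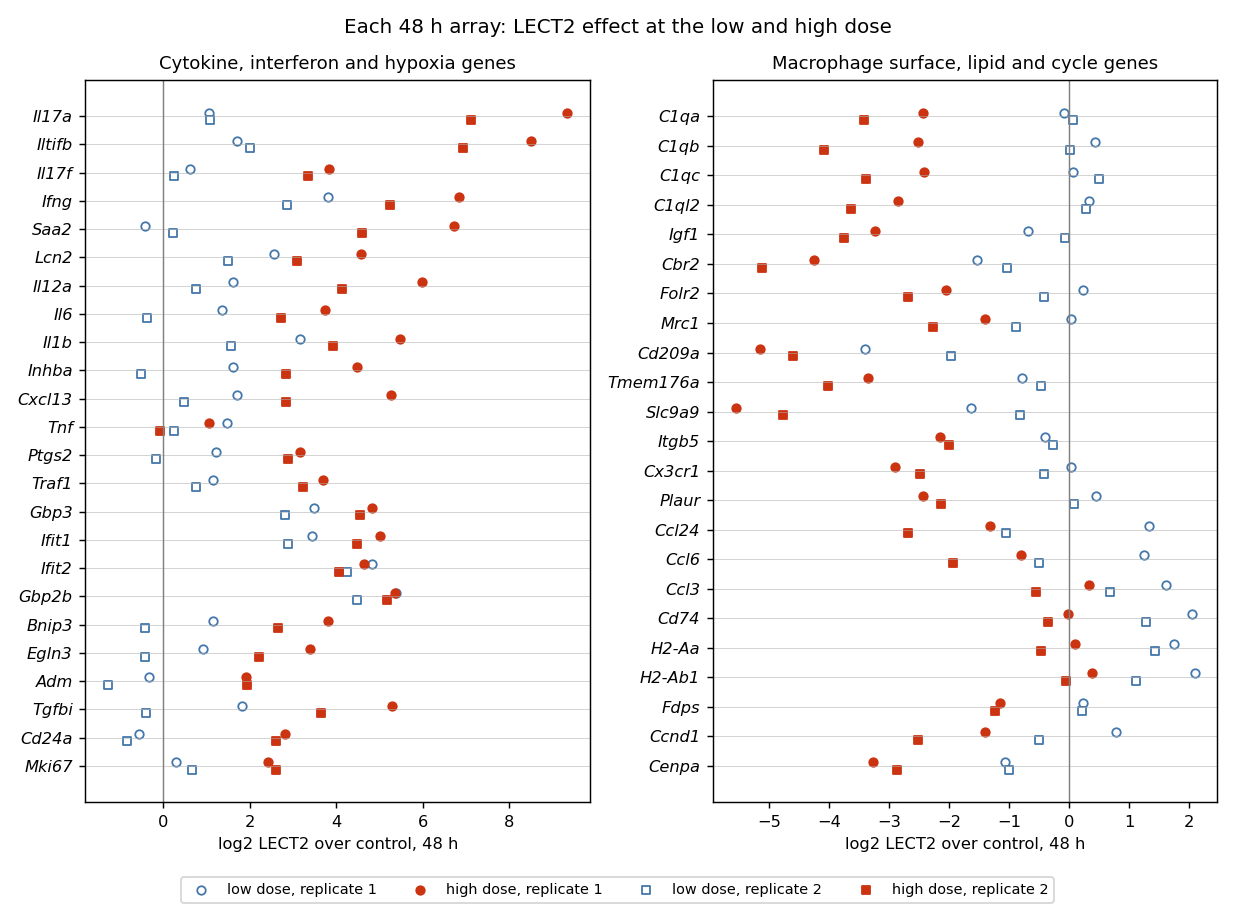
Log2 LECT2 over control on each of the 4 arrays at 48 h for named genes of both directions; open blue symbols are the low dose, filled red symbols the high dose, circles replicate 1 and squares replicate 2. Il17a lies at 1.05 and 1.08 (low) and 9.33 and 7.12 (high), C1qb at 0.43 and 0.02 (low) and -2.52 and -4.09 (high), and the 4 values of Ifit2 lie between 4.07 and 4.83.

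Acute phase and antimicrobial proteins, which bind lipids, iron or microbes, stood higher at the high dose as a list. Of 19 measured members 10 were at least 2-fold higher in both replicates (background 2.19%) and 0 lower (3.09%), with a median dose difference of 1.11 against -0.035 over all genes. Saa2, a serum amyloid A gene, was at -0.43 and 0.22 at the low dose and 6.72 and 4.61 at the high dose, at least 5.09-fold higher at the high dose. It was dim at the low dose and in the control channel of all 4 arrays. In the LECT2 channel Saa2 passed (adjusted p = 0.0461) and was the only one of 16 members tested there that did. Saa1 was at 2.46 and 0.33 at the low dose and 4.67 and 2.21 at the high dose, so the replicates differed by about as much as the doses and the groups overlapped. Lcn2, which sequesters bacterial iron carriers, was at 2.57 and 1.51 at the low dose and 4.57 and 3.09 at the high dose, a dose difference of 1.79 ± 0.61 (adjusted p = 0.397). Cfb, complement factor B, was at 3.73 and 2.02 at the low dose and 6.35 and 4.14 at the high dose, a dose difference of 2.37 ± 0.81 (adjusted p = 0.399), and in both experiments the high dose stood above the low one. The summed LECT2 signal of 12 neutrophil markers was 35300 and 43500 at the low dose and 47800 and 60800 at the high dose; the part of such cells in these differences was not tested.

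Among 21 measured proinflammatory cytokines 8 stood at least 2-fold higher at the high dose in both replicates and 2 lower (Il27 and Csf1, the macrophage growth factor), with a median of 0.80; 4 passed as higher in the LECT2 channel (Il17a, Il1b, Il6 and Inhba) and 1 as lower (Csf1). Il6, a fever and acute phase cytokine, was at 1.36 and -0.37 at the low dose and 3.75 and 2.73 at the high dose. Its dose difference was 2.75 ± 0.63 (adjusted p = 0.276) in the ratio and 2.79 ± 0.30 (adjusted p = 0.0103) in the LECT2 channel. Il1b, the interleukin 1 beta gene, was at 3.15 and 1.57 at the low dose and 5.48 and 3.93 at the high dose. Il1b passed in the LECT2 channel at 3.27 ± 0.21 (adjusted p = 0.0016). For Il1b both doses stood higher in replicate 1 than in replicate 2, and the groups did not overlap. Inhba, the activin A subunit, was at 1.62 and -0.50 at the low dose and 4.47 and 2.83 at the high dose. Inhba passed at 2.94 ± 0.39 (adjusted p = 0.019). Tnf was at 1.49 and 0.26 at the low dose and 1.05 and -0.06 at the high dose, a dose difference of -0.38 ± 0.51 (adjusted p = 0.86), and the groups overlapped.

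NF-kB targets and their feedback genes followed with 6 of 29 at least 2-fold higher in both replicates (background 2.19%), 1 lower (3.09%) and a median of 0.55. Traf1, an adaptor of TNF receptors, was at 1.16 and 0.77 at the low dose and 3.70 and 3.23 at the high dose, with close replicates and a dose difference of 2.50 ± 0.36 (adjusted p = 0.134); it passed in the LECT2 channel at 2.47 ± 0.27 (adjusted p = 0.0103). Malt1, a protease of the NF-kB pathway, was at 0.71 and 0.59 at the low dose and 2.50 and 2.57 at the high dose. Malt1 passed at 1.99 ± 0.25 (adjusted p = 0.0181). Ptgs2, the inducible cyclooxygenase of prostaglandin synthesis, was at 1.23 and -0.17 at the low dose and 3.15 and 2.88 at the high dose. Ptgs2 passed at 2.49 ± 0.34 (adjusted p = 0.0198). The exception was Plaur, the urokinase receptor: it was at 0.44 and 0.084 at the low dose and -2.43 and -2.14 at the high dose, a dose difference of -2.55 ± 0.40 (adjusted p = 0.16), and passed as lower in the LECT2 channel at -2.25 ± 0.21 (adjusted p = 0.0067). No high dose value of Plaur came near a low dose value.

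The CXC and CX3C chemokine list had 4 of 13 members at least 2-fold higher and 1 lower. Cxcl3, a neutrophil attractant, was at 5.52 and -0.13 at the low dose and 8.10 and 3.43 at the high dose: the replicates of a dose lay further apart than the doses, so the dose difference was 3.07 ± 1.92 (adjusted p = 0.631) although it was 2.57 and 3.56 within the 2 experiments. The control channel of replicate 1 also differed, by -1.58 and -0.03 in replicates 1 and 2 for high minus low, and Cxcl3 passed in the LECT2 channel at 3.74 ± 0.23 (adjusted p = 0.00151). Tarm1, an activating receptor of myeloid cells, also stood higher in replicate 1 at both doses, at 3.51 and 0.27 (low) and 8.03 and 4.25 (high), without overlap of the groups, and passed at 2.31 ± 0.24 (adjusted p = 0.00927). The LECT2 signal of Tarm1 was well above background on only 1 of the 2 low dose arrays, and its control signal on 2 of the 4 arrays. Its control channel differed by -1.14 and -0.36. Cxcl13, a B cell attractant, was at 1.72 and 0.49 at the low dose and 5.27 and 2.84 at the high dose. Cxcl13 passed at 3.30 ± 0.49 (adjusted p = 0.0246). Clec4e, the receptor Mincle for mycobacterial cord factor, was at 0.95 and -0.53 at the low dose and 3.45 and 1.87 at the high dose. Clec4e passed at 2.25 ± 0.33 (adjusted p = 0.0235), and Ccrl2, a non-signalling chemerin receptor, was at -0.28 and -0.34 at the low dose and 1.99 and 1.77 at the high dose with nearly equal replicates but did not pass at 2.04 ± 0.60 (adjusted p = 0.138).

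Interferon-stimulated genes were compared next. Against control, 1123 of all genes tested passed as higher at the high dose (4.3%) and 1808 as lower (6.92%), and at the low dose 40 (0.153%) and 5 (0.0191%); without a dye swap these counts can hold a dye effect. The guanylate-binding proteins and immunity-related GTPases, which attack the vacuoles of intracellular microbes, had a median of log2 2.87 at the low dose and 3.65 at the high dose; 7 of 18 passed as higher than control at the low dose and all 18 at the high dose. Of 18 measured 3 stood at least 2-fold higher in both replicates (Gbp3, Gbp5 and Gbp6) and 0 lower, and the median dose difference was 0.79. Their control channel also differed between the arrays of replicate 1, with a median high minus low difference of -0.44, against 0.030 in replicate 2, and its part in the ratios of replicate 1 was not tested. The type I interferon effectors had a median dose difference of 0.23 (0.39 under loess), and 8 of 33 passed as higher than control at the low dose and 25 at the high dose. At least 2-fold in both replicates, 2 of 33 stood higher (background 2.19%) and 1 lower, the latter near its background of 3.09%. Some promoters of these genes share a letter pattern, the core of the interferon-stimulated response element (GAAA, any 2 bases, GAAA). For 3 genes that hold it, the 250 bases before the start site are printed from RefSeq (GRCm38.p6), 5′ to 3′ on the gene's strand. The core on either strand is in capitals, and adjoining matches run together.
Gbp3 (chr3:142559794-142560043, plus strand): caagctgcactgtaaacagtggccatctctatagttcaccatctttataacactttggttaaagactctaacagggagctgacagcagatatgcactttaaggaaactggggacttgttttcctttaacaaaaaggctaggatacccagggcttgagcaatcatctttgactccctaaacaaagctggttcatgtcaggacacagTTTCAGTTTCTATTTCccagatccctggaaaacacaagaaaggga
Gbp5 (chr3:142496684-142496933, plus strand): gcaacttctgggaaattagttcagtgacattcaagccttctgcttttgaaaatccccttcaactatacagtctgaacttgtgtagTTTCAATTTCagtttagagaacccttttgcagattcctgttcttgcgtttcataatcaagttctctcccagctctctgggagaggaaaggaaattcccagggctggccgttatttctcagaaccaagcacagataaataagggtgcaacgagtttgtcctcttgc
Ifit1 (chr19:34640639-34640888, plus strand): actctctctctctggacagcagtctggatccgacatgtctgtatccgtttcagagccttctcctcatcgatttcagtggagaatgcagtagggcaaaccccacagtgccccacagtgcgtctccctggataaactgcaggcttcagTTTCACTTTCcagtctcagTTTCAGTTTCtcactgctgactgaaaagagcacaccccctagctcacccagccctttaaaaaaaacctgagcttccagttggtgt
Of the 11 genes of the GTPase list with a promoter entry 10 held this core, and of the 25 of the type I list 10 did, against 3.46% of 27025 genes with an entry. An NF-kB pattern (GGGA, any 2 bases, TTCC) was searched in the same way. It was in 2 of the 20 NF-kB list genes and 4 of the 57 named genes with an entry, against 1.36% of all genes. A match is a description of letters and does not show a binding site.

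Gbp3 was at 3.48 and 2.82 at the low dose and 4.84 and 4.54 at the high dose, a dose difference of 1.54 ± 0.38 (adjusted p = 0.304). Gbp5 was at 2.80 and 2.13 at the low dose and 4.28 and 3.81 at the high dose and Gbp6 at 3.07 and 3.01 at the low dose and 5.37 and 5.13 at the high dose, the latter with the widest gap between doses of the 3. Gbp3 and Gbp6 passed in the LECT2 channel, at 1.89 ± 0.24 (adjusted p = 0.0187) and 2.43 ± 0.39 (adjusted p = 0.0324); Gbp5 did not, at 1.57 ± 0.32 (adjusted p = 0.0627). Gbp2b was at 5.37 and 4.47 at the low dose and 5.36 and 5.17 at the high dose, a difference of 0.35 ± 0.60 (adjusted p = 0.901), with overlapping groups; its control channel differed by -1.39 and -0.099 in replicates 1 and 2, and under loess of the scanner files the ratio difference was 1.16. Ifit1, an RNA-binding antiviral protein, was at 3.43 and 2.88 at the low dose and 5.01 and 4.49 at the high dose. Ifit1 passed at 1.51 ± 0.21 (adjusted p = 0.0201). The control channel of Ifit1 also differed, by -1.41 and -0.037 in replicates 1 and 2, and its ratio difference was 2.24 under loess. For Gbp5 the control channel differed by -1.05 and -0.15, for Gbp3 by -0.51 and 0.45 and for Gbp6 by -0.30 and 0.051. Ifit2, a protein of the same family, was at 4.83 and 4.26 at the low dose and 4.65 and 4.07 at the high dose, a difference of -0.18 ± 0.36 (adjusted p = 0.918), with overlapping groups; its control channel differed by -1.84 and -0.10, and under loess of the scanner files the ratio difference was 0.81. The difference between Ifit1 and Ifit2 was not itself tested.

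Hypoxia-response and glycolysis genes stood higher at the high dose: 9 of 26 at least 2-fold in both replicates and 0 lower, with a median of 0.48. The list's median was log2 0.29 above control at the low dose and 1.18 at the high dose. These genes are known targets of hypoxia-inducible factors, which bind ACGTG, a motif chosen here after the values were seen. The 250 bases before the start of the 3 members that passed in the LECT2 channel are printed as above, with ACGTG on either strand in capitals.
Bnip3 (chr7:138909507-138909756, minus strand): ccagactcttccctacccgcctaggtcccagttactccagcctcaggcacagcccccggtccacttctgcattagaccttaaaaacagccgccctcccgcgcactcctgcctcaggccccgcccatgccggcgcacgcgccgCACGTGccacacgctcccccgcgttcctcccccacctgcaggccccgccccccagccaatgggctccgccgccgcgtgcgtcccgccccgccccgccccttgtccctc
Egln3 (chr12:54203875-54204124, minus strand): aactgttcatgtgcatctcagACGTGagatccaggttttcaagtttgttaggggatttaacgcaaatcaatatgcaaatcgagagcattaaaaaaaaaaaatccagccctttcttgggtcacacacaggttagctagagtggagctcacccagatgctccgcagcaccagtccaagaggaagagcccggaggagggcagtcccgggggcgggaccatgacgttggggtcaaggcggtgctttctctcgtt
Ero1a (chr14:45318573-45318822, minus strand): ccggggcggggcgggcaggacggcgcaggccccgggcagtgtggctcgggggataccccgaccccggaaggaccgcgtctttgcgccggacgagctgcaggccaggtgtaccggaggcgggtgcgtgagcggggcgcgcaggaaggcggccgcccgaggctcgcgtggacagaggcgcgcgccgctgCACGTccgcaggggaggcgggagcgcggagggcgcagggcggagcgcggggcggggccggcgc
ACGTG was found in 16 of the 25 list genes with an entry, against 18.5% of all 27025 genes. Over the 57 named genes with an entry it was in 10 (17.5%). In Bnip3 the 2 matches overlap as the palindrome CACGTG.

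Bnip3, a mitophagy receptor, was at 1.14 and -0.41 at the low dose and 3.82 and 2.66 at the high dose. Bnip3 passed in the LECT2 channel at 2.84 ± 0.33 (adjusted p = 0.0132). Egln3, an oxygen-sensing prolyl hydroxylase, was at 0.92 and -0.41 at the low dose and 3.39 and 2.21 at the high dose. Egln3 passed at 2.32 ± 0.22 (adjusted p = 0.0067). Ero1a, an oxidase of disulfide formation, was at 0.16 and 0.34 at the low dose and 2.02 and 2.19 at the high dose. Ero1a passed at 1.83 ± 0.25 (adjusted p = 0.0198). Over the 3 genes the low dose arrays lay between -0.41 and 1.14 and the high dose arrays between 2.02 and 3.82. The ranking that chose these genes favours such a gap. Adm, the vasodilator adrenomedullin, was below control at the low dose and above it at the high dose, at -0.34 and -1.26 (low) and 1.92 and 1.93 (high); its difference was 2.72 ± 0.39 (adjusted p = 0.135). Nuclear genes of the respiratory chain had a median dose difference of 0.027 with 0 of 26 beyond 2-fold in both replicates, and cytosolic ribosomal proteins 0.025 with 0 of 34 higher and 1 lower.

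**Figure D4:**
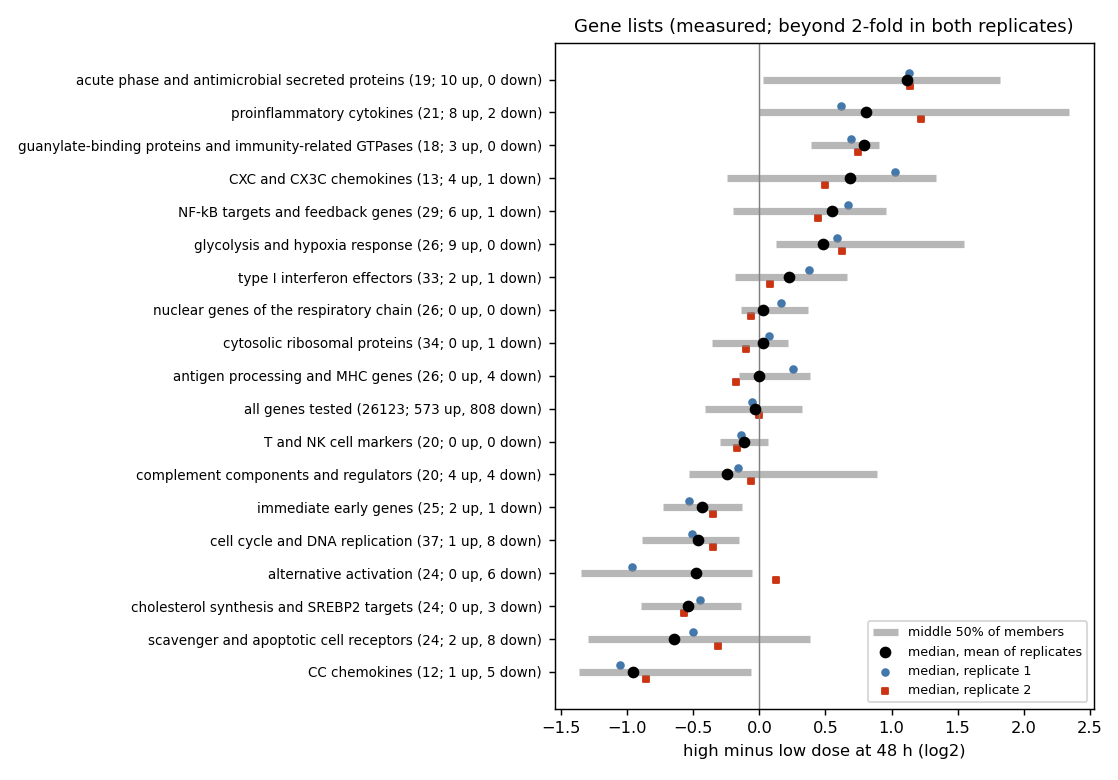
Dose difference at 48 h (log2) over 18 gene lists and over all genes; black points are medians of the mean of the replicates, blue circles and red squares the medians in replicates 1 and 2, and grey bars the middle 50% of members, with the number measured and the numbers at least 2-fold up and down in both replicates after each name. The lists run from acute phase genes at 1.11 to CC chemokines at -0.96; the replicate medians of alternative activation lie on opposite sides of 0.

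Other effector genes were divided as well. Nos2, the inducible nitric oxide synthase, was below control or near it at the low dose and above it at the high dose (-0.021 and -0.45 (low) and 1.48 and 1.44 (high)), a difference of 1.69 ± 0.40 (adjusted p = 0.291). Acod1, which makes itaconate, was at 3.39 and 1.89 at the low dose and 4.11 and 3.12 at the high dose. Arg1 was at 3.01 and -0.31 at the low dose and 3.45 and 0.069 at the high dose, so the replicates lay further apart than the doses and the groups overlapped. Within the experiments the Arg1 difference was 0.43 and 0.38, and with the replicate block it did not pass (adjusted p = 0.722). Tgfbi, a matrix protein induced by TGF-beta, was at 1.84 and -0.39 at the low dose and 5.29 and 3.66 at the high dose. Tgfbi passed in the LECT2 channel at 3.71 ± 0.21 (adjusted p = 0.00151). Cd24a, a mucin-like surface protein, went from below to above control at -0.55 and -0.84 (low) and 2.83 and 2.60 (high), a difference of 3.41 ± 0.39 (adjusted p = 0.108), and passed at 3.26 ± 0.29 (adjusted p = 0.0067). The low dose of Cd24a did not pass against control (adjusted p = 0.458). In the osteoclast and bone list 3 of 13 stood at least 2-fold higher and 0 lower: Acp5, the tartrate-resistant phosphatase, at 1.37 and 0.047 at the low dose and 3.19 and 1.92 at the high dose, Calcr, the calcitonin receptor, at -0.24 and 0.21 at the low dose and 3.43 and 4.30 at the high dose, and Car2. Calcr was not well above background at the low dose or in any control channel, and its bound was at least 1.75-fold.

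The C1q chains, which opsonise apoptotic cells and start the classical complement pathway, were near control at the low dose and well below it at the high dose. C1qa was at -0.084 and 0.064 at the low dose and -2.44 and -3.42 at the high dose, a dose difference of -2.92 ± 0.37 (adjusted p = 0.114). C1qb was at 0.43 and 0.02 at the low dose and -2.52 and -4.09 at the high dose and C1qc at 0.067 and 0.49 at the low dose and -2.42 and -3.39 at the high dose. Both passed in the LECT2 channel, at -3.18 ± 0.39 (adjusted p = 0.0174) and -2.81 ± 0.30 (adjusted p = 0.0103); C1qa was not tested there. C1ql2, a C1q-like gene, was at 0.32 and 0.28 at the low dose and -2.86 and -3.64 at the high dose with the smallest spread of the 4 and passed at -3.27 ± 0.26 (adjusted p = 0.00391). Over the complement list 4 of 20 stood at least 2-fold lower (the 3 C1q chains and C3ar1) and 4 higher (C1ra, C1s1, C3 and Cfb). The list as a whole thus went in both directions, with a median of -0.24 (-0.079 under loess).

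Scavenger and apoptotic cell receptors, a list that also holds the C1q chains, had 8 of 24 at least 2-fold lower in both replicates and 2 higher, with a median of -0.65 (-0.26 under loess of the scanner files). Itgb5, the integrin beta 5 chain that takes part in uptake of apoptotic cells, was at -0.40 and -0.27 at the low dose and -2.15 and -2.00 at the high dose. Itgb5 passed in the LECT2 channel at -1.57 ± 0.20 (adjusted p = 0.0181). Cd209a was the lowest of the lectins: -3.40 and -1.98 at the low dose and -5.15 and -4.60 at the high dose, a difference of -2.18 ± 0.64 (adjusted p = 0.339). Its low dose values thus already lay below control, though the low dose did not pass against control (adjusted p = 0.0904). Its LECT2 signal was well above background on only 1 of the 2 high dose arrays. The folate receptor Folr2 was at 0.23 and -0.42 at the low dose and -2.06 and -2.68 at the high dose, the mannose receptor Mrc1 at 0.029 and -0.88 at the low dose and -1.40 and -2.26 at the high dose and the galactose lectin Clec10a at -0.79 and 0.62 at the low dose and -2.96 and -2.96 at the high dose. Mrc1 passed at -1.32 ± 0.21 (adjusted p = 0.0318); Folr2 and Clec10a did not, and Clec10a was not well above background at the high dose, which stood at least 1.69-fold lower. In the list of Cd209 and related lectins these genes were 3 of 17 at least 2-fold lower (Cd209a, Mrc1 and Clec10a), and 1 stood higher (Clec4e), with a median of -0.39.

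In the alternative activation list, which holds Mrc1, Clec10a and Folr2, 6 of 24 stood at least 2-fold lower and 0 higher, but the list's median was -0.96 in replicate 1 and 0.13 in replicate 2, and the median of both was -0.48 (-0.089 under loess). The replicates therefore disagreed on the direction of the list. The resident peritoneal macrophage identity list went both ways, with 4 of 25 at least 2-fold higher (Saa3, Prg4, Marco and Tgfb2), 4 lower (Timd4, Selp, Vsig4 and Alox15) and a median of -0.33; in the LECT2 channel Prg4 passed as higher and Timd4 as lower. Alox15, a 12/15-lipoxygenase, was at -2.95 and -1.86 at the low dose and -4.51 and -5.01 at the high dose, at least 2.69-fold lower at the high dose. Igf1, a growth factor gene, was at -0.68 and -0.065 at the low dose and -3.23 and -3.75 at the high dose, a difference of -3.12 ± 0.46 (adjusted p = 0.137), and passed at -2.77 ± 0.29 (adjusted p = 0.00992). Cbr2, a carbonyl reductase, was at -1.54 and -1.04 at the low dose and -4.25 and -5.11 at the high dose. Cbr2 passed at -3.08 ± 0.34 (adjusted p = 0.0111). Slc9a9, an endosomal sodium-proton exchanger, was at -1.63 and -0.83 at the low dose and -5.55 and -4.76 at the high dose, at least 3.27-fold lower, and passed (adjusted p = 0.0311). It was dim at the high dose, as was Alox15. Tmem176a, a membrane protein, was at -0.79 and -0.47 at the low dose and -3.35 and -4.02 at the high dose and passed at -2.95 ± 0.29 (adjusted p = 0.00816). For each of these 5 genes no high dose value reached the lowest low dose value, which the ranking that chose them favours.

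CC chemokines had 5 of 12 members at least 2-fold lower at the high dose, 1 higher (Ccl5) and a median of -0.96. Ccl24, an eosinophil attractant, was at 1.33 and -1.05 at the low dose and -1.32 and -2.69 at the high dose, Ccl6 at 1.24 and -0.50 at the low dose and -0.80 and -1.93 at the high dose and Ccl3 at 1.61 and 0.68 at the low dose and 0.34 and -0.55 at the high dose. For each the high dose of replicate 1 lay closest to the low dose of replicate 2, and the groups did not overlap. None of the 5 lower members passed in the LECT2 channel, where Ccl5 was the only member that passed, as higher. Loess of the scanner files moved the list's median to -0.23. Cx3cr1, the fractalkine receptor, was at 0.025 and -0.41 at the low dose and -2.91 and -2.49 at the high dose, a difference of -2.51 ± 0.42 (adjusted p = 0.183), or -1.01 under loess.

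The 4 class II genes named here, whose products present peptides to CD4 T cells, had values above control at the low dose and near it at the high dose. At the low dose none of the 4 passed against control in limma (adjusted p = 0.0975 to 0.160). Cd74, the invariant chain, was at 2.05 and 1.27 at the low dose and -0.014 and -0.35 at the high dose, and H2-Aa at 1.75 and 1.43 at the low dose and 0.10 and -0.46 at the high dose. H2-Ab1 was at 2.09 and 1.11 at the low dose and 0.38 and -0.051 at the high dose and H2-DMa, a subunit of the peptide loader, at 1.49 and 1.17 at the low dose and -0.26 and -0.47 at the high dose. Dendritic cell markers, a list that holds H2-Ab1, had 4 of 17 at least 2-fold lower and 1 higher, and their summed LECT2 signal was 80800 and 86300 at the low dose and 58000 and 73300 at the high dose. B cell markers had a median of -0.58, with 10 of 14 lower in both replicates and 0 beyond 2-fold. The part of such cells in the class II differences was not tested. The dose differences ran from -1.84 for Cd74 to -1.43 for H2-Ab1, and no groups overlapped, which the choice of these genes favours. H2-Aa and H2-DMa passed in the LECT2 channel, at -1.50 ± 0.20 (adjusted p = 0.0198) and -1.61 ± 0.28 (adjusted p = 0.0395), H2-Ab1 did not (-1.28 ± 0.26 (adjusted p = 0.0607)), and Cd74 was not tested there. These were the 4 of 26 measured antigen processing and MHC genes that stood at least 2-fold lower; 0 stood higher, and the median of the list was -0.004. Icosl, a costimulatory ligand, was at 0.32 and 0.61 at the low dose and -2.14 and -1.72 at the high dose, at least 1.65-fold lower.

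Cholesterol synthesis and SREBP2 target genes had a median of -0.54 (-0.34 under loess) with 3 of 24 at least 2-fold lower and 0 higher. Fatty acid uptake and lipid droplet genes had a median of -0.071 (0.051 under loess), with 2 of 22 higher (Acsl1 and Dgat2) and 2 lower (Cd36 and Lpl). Fdps, an enzyme of the isoprenoid pathway, was at 0.23 and 0.20 at the low dose and -1.15 and -1.24 at the high dose, Dhcr7, which makes cholesterol in its last step, at -0.56 and -0.21 at the low dose and -1.48 and -1.48 at the high dose, and Insig1, the feedback regulator of the pathway, at -0.64 and -0.063 at the low dose and -2.05 and -1.19 at the high dose. None of this list passed in the LECT2 channel. Tbxas1, thromboxane synthase, was at 0.17 and -0.40 at the low dose and -1.13 and -1.63 at the high dose. Tbxas1 passed at -1.23 ± 0.17 (adjusted p = 0.0214).

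Cell cycle and DNA replication genes had 8 of 37 at least 2-fold lower, 1 higher and a median of -0.46. Cenpa, the centromere histone, was at -1.06 and -0.998 at the low dose and -3.27 and -2.87 at the high dose, and Ccnd1, cyclin D1, at 0.78 and -0.51 at the low dose and -1.40 and -2.52 at the high dose; both passed as lower in the LECT2 channel, at -1.42 ± 0.20 (adjusted p = 0.0224) and -1.54 ± 0.28 (adjusted p = 0.0461). The one higher member was Mki67, the proliferation marker, at 0.30 and 0.66 at the low dose and 2.43 and 2.62 at the high dose, which passed at 2.13 ± 0.26 (adjusted p = 0.0174) against the direction of the rest. Its other measured probe had the same sign of difference.

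The dose difference at 48 h was then set against that at 3.5 h in the same fit. The 3.5 h columns did not equal their best matching scanner files. Between 2.66% and 8.98% of single-spot probes lay within 0.01, with r = 0.217 to 0.959, and the reason was not tested. The interaction passed for 0 of 26123 genes (0.0%; smallest adjusted p 0.261), and 2541 had an unadjusted p under 0.05; without low dose replicate 2 at 3.5 h, 97 passed, 93 of them with the larger value at 48 h. No gene is therefore shown to be particular to 48 h by all the arrays. Il17f stood higher with the high dose at both times, by 3.64 and 2.86 in replicates 1 and 2 at 3.5 h and by 3.20 and 3.09 at 48 h, an interaction of -0.11 ± 1.06 (adjusted p = 0.978). Nos2 did so too, by 1.12 and 1.58 at 3.5 h, with an interaction of 0.34 ± 0.56 (adjusted p = 0.844). Il17a also stood higher with the high dose at 3.5 h, by 3.56 and 3.75, and its interaction did not pass (adjusted p = 0.468). For Bnip3, Traf1 and C1qb the dose differences at 3.5 h lay nearer 0 than at 48 h. For Bnip3 they were 0.053 and 0.092 and the interaction 2.80 ± 0.96 (adjusted p = 0.479), for Traf1 0.014 and 0.55 and 2.22 ± 0.51 (adjusted p = 0.468), and for C1qb -0.58 and -0.063 and -3.21 ± 0.71 (adjusted p = 0.468). Tnf, at log2 5.57 to 5.91 above control on the 3.5 h arrays, had dose differences of 0.15 and 0.31 there.

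**Figure D5:**
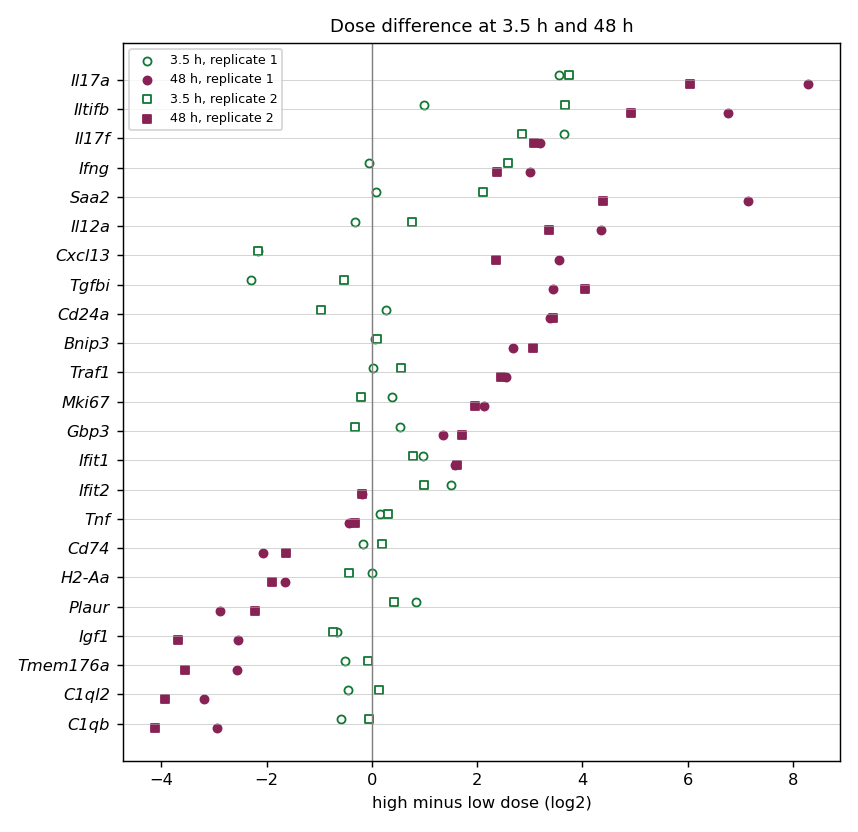
Dose difference (high minus low, log2) of selected named genes at 3.5 h (open green) and 48 h (filled purple), circles for replicate 1 and squares for replicate 2. Il17f lies at 3.64 and 2.86 at 3.5 h and at 3.20 and 3.09 at 48 h, and Cxcl13 lies at -2.16 and -2.17 at 3.5 h and 3.55 and 2.36 at 48 h.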

How the data were processed

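Whole mouse genome 2-colour Agilent arrays were read with Agilent Feature Extraction 10.7.3.1, per the file headers and the submitters' processing notes. The deposited value table holds log2 ratios, control over LECT2. The deposited scanner files hold signal intensity for each dye, processed (background-subtracted and dye-normalized) and raw, and a log10 ratio, per the file headers. Whether or how the table's 3.5 h columns were normalized further is not given in the sources used here. The 48 h columns equal the ratio of processed signals. Column medians of the 48 h arrays lay between -0.079 and 0.11, with no scaling between arrays.

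Of 39428 probes 26411 were named by matching the accession in the scanner files to RefSeq, and 13017 kept their accession. A probe was kept if at least 2 of the 8 arrays read it well above background in one of the channels, and of several probes of a gene the one brightest on average was used, which left 26123 genes, 16730 of them with a symbol. Differences were tested with limma 3.58.1 in R 4.3.3 on the group means over all 8 arrays (4 residual degrees of freedom, Benjamini-Hochberg, threshold 0.05; SE with n = 2 arrays per dose). The arrays stood on 2 slides. As the columns' labels place them, all 48 h arrays lie on 1 slide, so the dose difference lies within it, while slide and time cannot be told apart. Separate mice per experiment are stated in the labels. The main fit had no replicate block, so its p-values set a difference against the spread between arrays of a group, pooled over both times. A spread between experiments that both doses share stays in this error, which is thus not the spread of the dose difference itself. With 2 replicates per group the precision is limited.

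For the single channels and the loess alternative, the scanner files matching the columns were corrected with normexp (offset 50), and loess and Aquantile scaling were applied. Where a probe was dim on both arrays of a group, the bound stated as "at least N-fold" sets the bright group's mean signal against the lowest signal well above background on the dim arrays, or the probe's own if higher; it is open to dye bias, since dyes were not swapped. In the ratio such probes take a substituted signal from the scanner software, so their log2 ratios are less certain. The replicate number marks the experiment and so pairs arrays across doses; deviations of same-numbered 48 h arrays from their group means correlated at r = 0.47 across genes.

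Named genes came from those whose LECT2 channel was well above background in both replicates of the dose at which the gene stood higher. Eligible were the largest in each direction, ranked by the smaller of both within-replicate differences of one sign. The leading members, by that ranking, of 51 gene lists (1040 entries) were eligible too. Cd209a, Tnf, Il1b, Arg1, Ifit2 and Gbp2b were named in every case. Not every eligible gene was named. The 71 named genes are a selection from them with Il22 and Ifng added, and counts over named genes depend on this selection. Members, lists and tests were chosen with earlier results of these data known. Il22 and Ifng, the ACGTG motif, the control channel fit, the fit without low dose replicate 1 at 3.5 h and the fit without outlier spots were added after the values were seen. Sequences are from RefSeq (GRCm38.p6); 57 of the 71 named genes had a promoter entry. The fit was checked on simulated data.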

Additional observations from a re-analysis of the deposited data

Results flagged for a closer look

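For Cxcl13 the dose difference had opposite signs at the 2 times in every replicate: 3.55 and 2.36 at 48 h and -2.16 and -2.17 at 3.5 h. The difference between the times was 5.12 ± 1.12 (adjusted p = 0.468) in the limma fit, so it did not pass the threshold over all genes. Cd24a, with an interaction of 3.76 ± 0.55 (adjusted p = 0.468), did not pass either.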

How the results depend on the processing

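The replicate block, which pairs arrays of one experiment, gave 0 genes past the threshold on all 8 arrays, within each time and on the 48 h arrays alone, and changed no call; the counts at an unadjusted p under 0.05 were 3085, 3525 and 5962. For the dose difference 0 genes also passed with each 48 h array left out in turn, and with the 48 h arrays alone without the block, other filters, median centring of the table, a median over probes, a trended prior and outlier spots left out. Normexp and loess of the matching scanner files gave 21 genes (13 higher, 8 lower), normexp and median centring 9 (5 and 4), the LECT2 channel alone 329, and leaving out low dose replicate 1 at 3.5 h gave 6, all higher. Leaving out 1 array moved the count for the interaction between 0 and 97. The count at least 2-fold higher in both replicates was 373 under loess, 181 under median centring and 303 in the LECT2 channel. The count lower was 296 under loess, 562 under median centring, 465 with bright probes only and 273 in the LECT2 channel. The count in opposite directions was 0 under loess and median centring, 412 with no filter, 38 with the LECT2 filter, 2 with bright probes and 1 in the LECT2 channel; the cause was not tested. Of the named genes 10 passed under loess, 6 under median centring and 39 in the LECT2 channel, of 69 tested in each.

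Signs turned for Ifit2 under loess (0.81) and median centring (0.65). Leaving out each 48 h array in turn moved Tnf between -0.99 and 0.24, Ifit2 between -0.47 and 0.10, Arg1 between -1.28 and 2.10 and Gbp2b between -0.10 and 0.80, signs included. With the scanner files as recorded, which by construction exchanges the doses of replicate 2 and takes arrays the table places at 3.5 h, 0 genes passed, the counts beyond 2-fold were 50, 293 and 108, and 65 named genes took the opposite sign: Il17a -3.44, Iltifb -2.35, Il17f -2.57, Il22 -1.37, Ifng -1.58, Saa2 -1.45, Saa1 -1.95, Lcn2 -1.91, Cfb -2.45, Il12a -0.76, Il6 -2.28, Il1b -2.22, Inhba -3.21, Cxcl3 -3.91, Cxcl13 -2.80, Ptgs2 -2.11, Traf1 -1.36, Malt1 -0.92, Tarm1 -2.15, Clec4e -2.75, Ccrl2 -1.53, Gbp3 -1.49, Gbp5 -1.51, Gbp6 -2.70, Gbp2b -1.46, Ifit1 -1.29, Bnip3 -2.61, Egln3 -1.73, Adm -0.98, Ero1a -1.83, Nos2 -1.22, Acod1 -1.47, Arg1 -3.14, Tgfbi -2.80, Calcr -0.23, Acp5 -1.81, Cd24a -2.01, Il23r -1.004, C1qb 1.26, C1qc 1.62, C1ql2 1.56, Igf1 1.89, Cbr2 0.28, Folr2 1.31, Clec10a 1.07, Cd209a 0.62, Tmem176a 1.52, Slc9a9 0.42, Cx3cr1 0.69, Plaur 1.31, Ccl24 0.78, Ccl3 0.16, H2-Aa 0.80, H2-Ab1 0.58, H2-DMa 0.85, Itgb5 0.98, Fdps 0.45, Dhcr7 0.33, Insig1 0.53, Alox15 0.14, Tbxas1 0.31, Ccnd1 0.77, Cenpa 0.95, Mki67 -1.66, Icosl 0.67.

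Few arrays and dim probes limit these data: with 2 per dose the median standard error was 0.40, and for probes dim at one dose only a bound is known.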
